A study of Rattus norvegicus with 9 samples.

Results

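The genes described here are the RANKL axis (Tnfsf11, Tnfrsf11a and Tnfrsf11b) and 7 genes that mark osteoclasts (Nfatc1, Acp5, Ctsk, Dcstamp, Ocstamp, Atp6v0d2 and Calcr). The genes were chosen by name and found among the 17602 genes of the deposited expression table. Of the 10, 9 were listed under their symbol. Dcstamp was listed under the identifier 103690326 with the symbol LOC103690326, which RefSeq pairs with Dcstamp.

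All groups were wild-type, young adult male Lewis rats. Unoperated knees gave the intact group, for which synovium, the tissue that lines the joint, was taken beside the medial meniscus. For the sham group the same synovium was taken 1 week after the joint capsule had been opened and closed. Partial medial meniscectomy (pMx) gave the third group, and what was sampled there, also at 1 week, was regenerating tissue. In this surgery the anterior part of the medial meniscus is cut away, and the synovium around the new tissue had been trimmed off. The effect of the meniscectomy and the change of tissue therefore cannot be told apart in pMx versus sham. By the RNA integrity numbers in the study's supplement, RNA quality also differed between the groups without overlap, being lowest in intact and highest in pMx, so its effect cannot be told apart from that of the group in any comparison. Each group had 3 libraries, which the labels call biological replicates without naming the rats behind them. The study performed the meniscectomy on both knees of a rat, and whether any libraries share a rat is not stated.

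RANKL, the product of Tnfsf11, is a cytokine of the TNF family that stromal cells, osteocytes and activated T cells make. It binds RANK (Tnfrsf11a) on myeloid precursors, and together with CSF1 it drives them to fuse into osteoclasts, the multinucleated cells that resorb bone and mineralized cartilage. Osteoprotegerin (Tnfrsf11b) is a secreted decoy receptor that binds RANKL and keeps it from RANK, so the balance of ligand and decoy is commonly described as a ratio. In the joint, synovial fibroblasts are a known source of RANKL in inflammatory arthritis.

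Expression is given as TPM, a measure of transcript abundance that is scaled by transcript length and sums to 1000000 in every library, so levels of different genes can be set side by side. TPM keeps no read numbers, so library depth is not known here and errors are the spread between libraries. Between 15644 and 16125 genes were above 0 TPM in a library. Intact replicate 3 stood apart by its skeletal muscle RNA: 7 muscle markers summed to 40680 TPM there, against 56.6 and 188 TPM in the other intact libraries, 216 to 2696 TPM in the sham group and 82.7 to 2807 TPM in the pMx group. Differences were tested with limma on log2(TPM + 1) over 16512 genes, and a gene passed the test at an adjusted p below 0.05. A gene was a DEG when it also had an absolute log2 fold change above 1. On this scale, the fold changes of genes near or below 1 TPM are understated.

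Of the 10 genes, 5 passed the test in pMx versus sham, where 36.6% of all genes tested passed. Tnfsf11, Acp5, Ctsk and Nfatc1 rose (4 of 10, against 17.7% of all genes), and Tnfrsf11b fell (1 of 10, against 18.9%). The DEGs were Tnfsf11, in the direction of 3.36% of all genes, and Tnfrsf11b, in the direction of 4.85%, and 8.21% of all genes were DEGs in either direction. Between sham and intact 4 genes passed, against 12.7% of all genes. Acp5, Atp6v0d2 and Ctsk were higher in sham (6.73% of all genes) and Tnfrsf11b was lower (5.97%), and the DEGs were Acp5 and Atp6v0d2 (1.42% of all genes were DEGs that were higher, and 1.96% DEGs in either direction). Between pMx and intact 6 genes passed, against 50.6% of all genes, and all 6 were DEGs, against 14.3%. Tnfsf11, Acp5, Ctsk, Dcstamp and Atp6v0d2 were higher in pMx (23.4% of all genes passed that were higher, and 6.4% were such DEGs) and Tnfrsf11b was lower (27.1% and 7.89%). The TPM ranges of pMx and sham did not overlap for 5 of the 10 genes and for 56.1% of all genes. Those of sham and intact did not overlap for 6 of the 10 and 30.6% of all genes, and those of pMx and intact for 8 of the 10 and 57.5%. The median log2 fold change of the 10 genes was 0.36 in pMx versus sham, 0.37 in sham versus intact and 0.77 in pMx versus intact. The medians of all genes were -0.0099, -0.023 and -0.033. The sham libraries enter both of the first comparisons and the intact libraries both of the last, so the 3 sets of values are not independent.

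**Figure D1:**
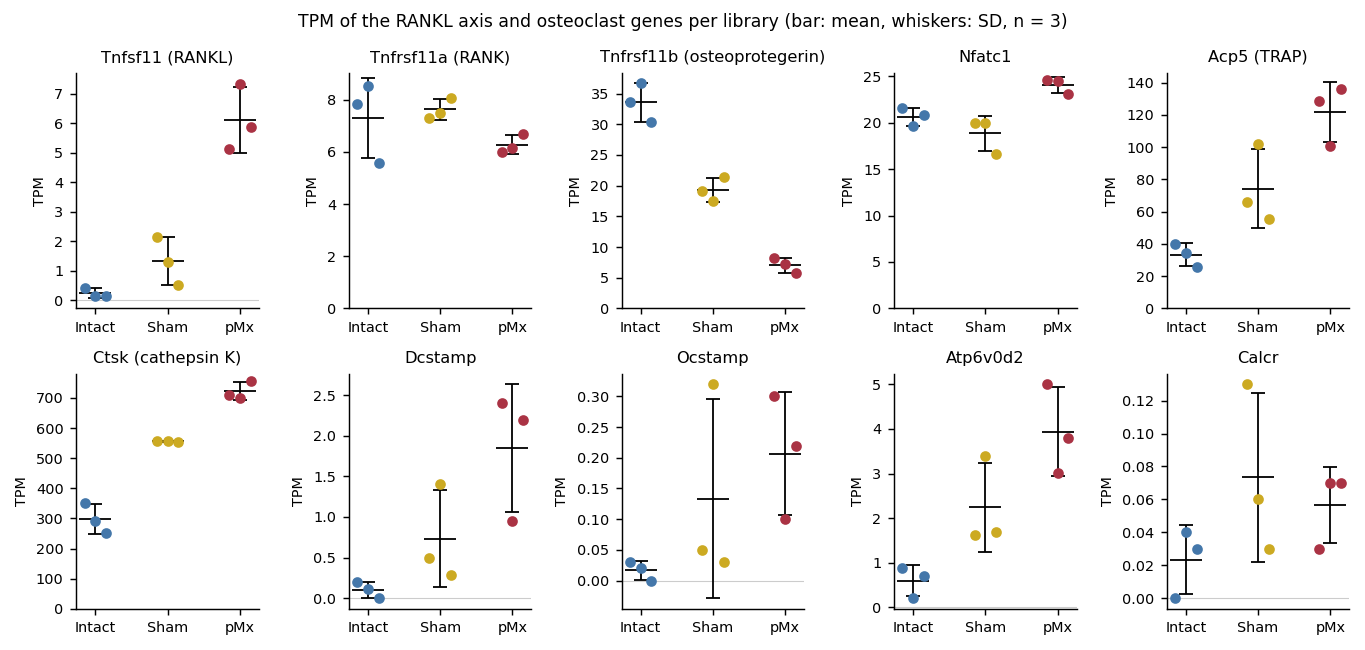
TPM (vertical axes, starting at or just below 0) of the 10 genes in the 3 intact, 3 sham and 3 pMx libraries; points are libraries, bars the group mean and whiskers the SD (n = 3). Tnfsf11 lies between 5.15 and 7.34 TPM in the pMx group, above every other library, and Tnfrsf11b lies between 5.70 and 8.17 TPM there, below every other library.

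The ligand was lowest in intact synovium and highest in the regenerating tissue. Tnfsf11 (identifier 117516) measured 0.43, 0.16 and 0.15 TPM in intact synovium (replicates 1 to 3), 2.14, 1.31 and 0.53 TPM after sham surgery and 5.15, 7.34 and 5.87 TPM in regenerating tissue. The 3 groups did not overlap. Group means were 0.247 ± 0.159, 1.33 ± 0.805 and 6.12 ± 1.12 TPM (SD, n = 3). The mean was 4.61-fold higher in pMx than in sham, with a log2 fold change of 1.66 (SE 0.24, adjusted p = 0.00105), and the gene passed in each of the 9 fits that left out 1 library. The mean was 5.38-fold higher in sham than in intact, a step that the log2(TPM + 1) scale understates because intact values were below 1 TPM. With a pseudocount of 0.01, the log2 fold change was 2.33 in sham versus intact and 2.395 in pMx versus sham. On the log2(TPM + 1) scale that of sham versus intact was 0.85 (SE 0.24), and its adjusted p of 0.0570 missed the threshold. Without Sham replicate 3, the sham library with the least Tnfsf11, the adjusted p was 0.0169. It was also below the threshold with a pseudocount of 0.1 (0.0311) or 0.01 (0.0299) and with median-of-ratios rescaling (0.0455). In a fit of the sham and intact libraries alone it was 0.118. Of the 9 fits that left out 1 library, only that without Sham replicate 3 passed, and the highest adjusted p was 0.156. The mean was 24.8-fold higher in pMx than in intact (log2 fold change 2.51, SE 0.24, adjusted p = 5.63e-05), and 39.5-fold higher without Intact replicate 1, the intact library with the most Tnfsf11. These are bulk tissues, so more cells that express a gene and more RNA per cell cannot be told apart for this or any other gene described here.

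The sequence before the start of Tnfsf11 is shown because this was the gene of the axis with the largest fold change. It is the 250 bases upstream of the RefSeq start in the rat assembly GRCr8, 5′ to 3′ on the strand of the gene, with capitals on matches to motif letters that were searched on both strands:
Tnfsf11, chr15:60114480-60114729, minus strand: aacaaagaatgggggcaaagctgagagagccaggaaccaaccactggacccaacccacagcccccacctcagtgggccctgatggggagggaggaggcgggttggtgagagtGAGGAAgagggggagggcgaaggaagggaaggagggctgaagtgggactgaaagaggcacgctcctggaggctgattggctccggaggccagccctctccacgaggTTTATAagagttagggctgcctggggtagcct
The window of 250 bases before and 50 after the start was searched for TATAAA (the TATA box), TGANTCA (AP-1), CACATG (an E-box that MITF can bind), GAGGAA (a PU.1 core), GGAAA (an NFAT core) and TGTGGT (RUNX), of which GAGGAA and GGAAA can overlap. Tnfsf11 held TATAAA on the opposite strand at -32 from the start and GAGGAA at -138. Among 33469 rat windows of the same length, 14.2% held TATAAA and 27.6% held GAGGAA. A match of letters is a description and not a binding site.

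The decoy receptor had the opposite order. Tnfrsf11b (identifier 25341) measured 33.64, 36.73 and 30.34 TPM in intact synovium, 19.16, 17.46 and 21.41 TPM after sham surgery and 8.17, 7.23 and 5.70 TPM in regenerating tissue. The groups were again fully apart, with means of 33.6 ± 3.20, 19.3 ± 1.98 and 7.03 ± 1.25 TPM (SD, n = 3). The mean was 2.75-fold lower in pMx than in sham (log2 fold change -1.35, SE 0.13, adjusted p = 0.000146). It was 1.74-fold lower in sham than in intact (log2 fold change -0.77, SE 0.13, adjusted p = 0.0112) and 4.77-fold lower in pMx than in intact (log2 fold change -2.11, SE 0.13, adjusted p = 6.60e-06). Tnfrsf11b was the single gene of the 10 that passed with a lower level, and it did so in all 3 comparisons and in each fit that left out 1 library.

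The ratio of Tnfsf11 to Tnfrsf11b within a library joins these values and was given no test. It was 0.0128, 0.00436 and 0.00494 in the intact libraries, 0.112, 0.0750 and 0.0248 in the sham libraries and 0.630, 1.015 and 1.03 in the pMx libraries. Each group lay above the one before it without overlap, and the means were 0.00736 ± 0.00470, 0.0705 ± 0.0437 and 0.892 ± 0.227 (SD, n = 3). Without Intact replicate 1 the intact mean was 0.00465. Expressed the other way, osteoprotegerin transcripts exceeded RANKL transcripts 78.2 to 230-fold in the intact group and 8.95 to 40.4-fold in the sham group. Tnfsf11 was at 0.15 to 0.43 TPM in the intact group, without read numbers, so the size of the intact ratio is uncertain. In the pMx group this ratio was 0.971 to 1.59, so the transcripts of ligand and decoy were at about the same level. The ratio is one of transcripts, and protein was not measured in these files.

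**Figure D2:**
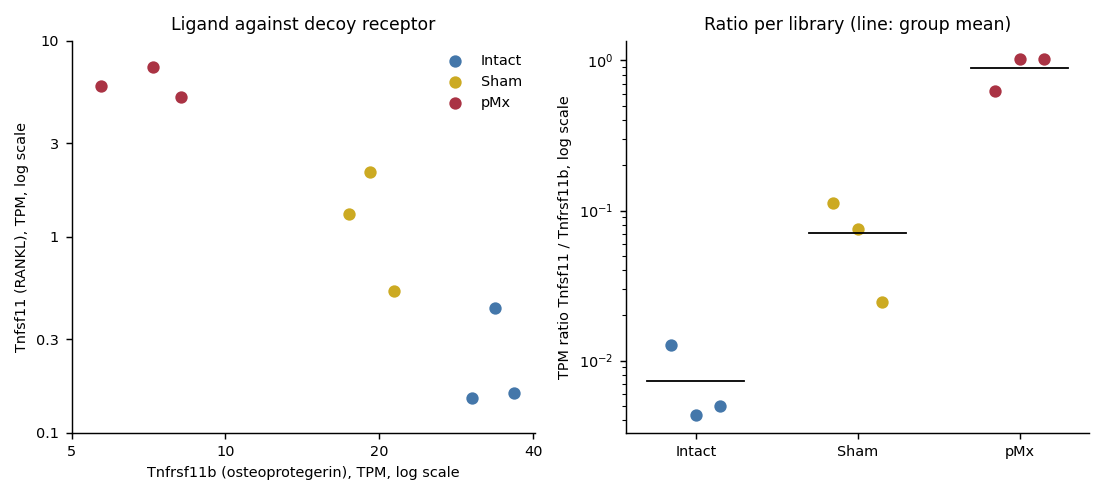
Left, Tnfsf11 against Tnfrsf11b in TPM (both axes on a log scale), 1 point for each of the 9 libraries; right, their ratio by group (log scale), with a line at the group mean. The pMx libraries sit at the top left with ratios of 0.630 to 1.03, and the intact libraries at the bottom right with ratios of 0.00436 to 0.0128.

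The receptor RANK lay between 5.57 and 8.52 TPM in all 9 libraries. Tnfrsf11a (identifier 498206) measured 7.84, 8.52 and 5.57 TPM in intact synovium, 7.32, 7.5 and 8.07 TPM after sham surgery and 6, 6.15 and 6.70 TPM in regenerating tissue. The pMx range lay below the sham range, and the intact range covered the whole of both. The gene did not pass between pMx and sham (log2 fold change -0.25, SE 0.14, adjusted p = 0.208), sham and intact (0.071, SE 0.14, adjusted p = 0.786) or pMx and intact (-0.17, SE 0.14, adjusted p = 0.334). The lowest intact value was that of Intact replicate 3, the library with the most muscle RNA. Without it, the adjusted p was 0.0404 in pMx versus sham (log2 fold change -0.25) and 0.0152 in pMx versus intact (log2 fold change -0.33), and the log2 fold change of sham versus intact turned to -0.089 (adjusted p = 0.534). The part of the muscle RNA in this was not tested. In the pMx group the 3 genes of the axis stood at means of 7.03, 6.28 and 6.12 TPM for Tnfrsf11b, Tnfrsf11a and Tnfsf11, and neighbours in this order overlapped. In the intact group their ranges were fully apart.

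Nfatc1 (identifier 100361818), the transcription factor that RANK signalling induces and that switches on osteoclast genes, was higher in the regenerating tissue by a small step. It measured 21.55, 19.60 and 20.76 TPM in intact synovium, 19.98, 19.90 and 16.64 TPM after sham surgery and 24.61, 24.47 and 23.10 TPM in regenerating tissue. Every pMx library was above every other library. The log2 fold change over sham was 0.34 (SE 0.083, adjusted p = 0.0126), a 1.28-fold difference that passed in each of the 9 fits that left out 1 library. Sham and intact overlapped (log2 fold change -0.13, SE 0.083, adjusted p = 0.354). Over intact it was 0.21 (SE 0.083) and the adjusted p of 0.0618 missed the threshold. Without Sham replicate 3, the lowest sham library, it was 0.0284, and it was also below the threshold with median-of-ratios rescaling (0.0307), quantile normalization (0.0162) and a fit of those 6 libraries alone (0.0493). Over intact, only 1 of the 9 fits that left out 1 library passed, and the highest adjusted p was 0.161. NFATc1 is also used by other cells, among them lymphocytes and endothelium.

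Of the 10 genes, Ctsk had the highest mean TPM in each group, and Acp5 the next in the sham and pMx groups. In the intact group the ranges of Acp5 and Tnfrsf11b overlapped. Ctsk (identifier 29175) encodes cathepsin K, the protease that degrades bone collagen and that fibroblasts and macrophages also make. It measured 350.01, 290.21 and 251.13 TPM in intact synovium, 556.03, 558.00 and 555.07 TPM after sham surgery and 708.35, 701.53 and 755.77 TPM in regenerating tissue, and the groups did not overlap. The 3 sham libraries differed by less than 3 TPM. The log2 fold change was 0.92 in sham versus intact (SE 0.11, adjusted p = 0.00382) and 1.29 in pMx versus intact (SE 0.11, adjusted p = 2.46e-05). For pMx versus sham, it was 0.37 (SE 0.11, adjusted p = 0.0258), a 1.30-fold difference. That call was lost on leaving out any 1 of the 6 sham and pMx libraries: the adjusted p was 0.0677, 0.0628 and 0.0715 without Sham replicates 1, 2 and 3, and 0.0625, 0.0569 and 0.0823 without pMx replicates 1, 2 and 3.

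Acp5 (identifier 25732) encodes tartrate-resistant acid phosphatase (TRAP), the classical stain for osteoclasts, which activated macrophages also express. It measured 39.88, 34.07 and 25.80 TPM in intact synovium, 66.09, 101.63 and 55.20 TPM after sham surgery and 128.39, 100.73 and 135.73 TPM in regenerating tissue. Both operated groups were above the intact group, while the highest sham library lay just above the lowest pMx library. Means were 33.3 ± 7.08, 74.3 ± 24.3 and 122 ± 18.5 TPM (SD, n = 3). The log2 fold change was 1.85 in pMx versus intact (SE 0.24, adjusted p = 0.000266). Between sham and intact it was 1.11 (SE 0.24, adjusted p = 0.0221), and the adjusted p was 0.0580, 0.0614 and 0.0596 without Intact replicate 2, Sham replicate 1 and Sham replicate 2 and 0.0675 in a fit of those 6 libraries alone. In pMx versus sham it was 0.74 (SE 0.24, adjusted p = 0.0393), and this call was lost without Intact replicate 2 (0.0550), Sham replicate 1 (0.111), Sham replicate 3 (0.134), pMx replicate 1 (0.110) or pMx replicate 3 (0.116).

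Upstream sequences are shown for Ctsk and for 1 of the 2 RefSeq starts of Acp5, since both genes passed in all 3 comparisons and both windows held the E-box letters CACATG. They are marked as above:
Ctsk, chr2:185747298-185747547, plus strand: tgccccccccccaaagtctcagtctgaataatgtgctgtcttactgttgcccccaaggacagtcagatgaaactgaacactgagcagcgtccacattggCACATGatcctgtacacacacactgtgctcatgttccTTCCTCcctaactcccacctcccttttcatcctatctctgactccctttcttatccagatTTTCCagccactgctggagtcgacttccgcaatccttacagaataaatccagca
Acp5, chr8:28943930-28944179, minus strand: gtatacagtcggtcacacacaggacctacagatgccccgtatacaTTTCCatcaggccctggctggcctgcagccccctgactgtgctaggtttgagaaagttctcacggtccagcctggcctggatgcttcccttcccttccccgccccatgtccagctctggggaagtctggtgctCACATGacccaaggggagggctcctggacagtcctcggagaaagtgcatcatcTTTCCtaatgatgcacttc
In Ctsk, CACATG was at -151, GAGGAA on the opposite strand at -114 and GGAAA on the opposite strand at -54. In this window of Acp5, CACATG was at -72 and GGAAA on the opposite strand at -205 and -19. The window of the other Acp5 start held none of the 6 motifs. Of all rat windows of the same length, 14% held CACATG and 62.7% held GGAAA. Windows were matched for 5 of the 10 genes (Tnfsf11, Acp5, Ctsk, Ocstamp and Calcr), and none of the 6 windows held TGANTCA, which 7.33% of all windows held.

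Of the 10 genes, those of cell fusion and acid secretion (Atp6v0d2, Dcstamp and Ocstamp) were low. Atp6v0d2 (identifier 297932) encodes a subunit of the vacuolar proton pump that osteoclasts need for fusion. It measured 0.88, 0.21 and 0.71 TPM in intact synovium, 1.63, 3.40 and 1.70 TPM after sham surgery and 5, 3.02 and 3.8 TPM in regenerating tissue. It rose in sham versus intact (log2 fold change 1.00, SE 0.25, adjusted p = 0.0365) and in pMx versus intact (log2 fold change 1.63, SE 0.25, adjusted p = 0.000752), without overlap. The sham call was lost without Intact replicate 2 (0.105), Sham replicate 1 (0.0667), Sham replicate 2 (0.105), Sham replicate 3 (0.0562) or pMx replicate 3 (0.0589), and in a fit of those 6 libraries alone (0.0803). Sham and pMx overlapped, with a log2 fold change of 0.63 (SE 0.25, adjusted p = 0.0831). Without Sham replicate 2, the highest sham library, that value was 0.87 (adjusted p = 0.0231), and with quantile normalization 0.75 (adjusted p = 0.0381). Only 1 of the 9 fits that left out 1 library passed in pMx versus sham, and the highest adjusted p was 0.239. With pseudocounts of 0.1 and 0.01 the adjusted p was 0.188 and 0.236.

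Dcstamp encodes a membrane protein required for the fusion of osteoclast precursors. It measured 0.20, 0.11 and 0 TPM in intact synovium, 0.50, 1.41 and 0.28 TPM after sham surgery and 2.41, 0.95 and 2.19 TPM in regenerating tissue. The intact libraries were the 3 lowest, and sham and pMx overlapped through Sham replicate 2. For pMx versus intact, the log2 fold change was 1.33 (SE 0.27, adjusted p = 0.00329), and the gene passed in each of the 9 fits that left out 1 library. The mean was 7.07-fold higher in sham than in intact and 2.53-fold higher in pMx than in sham. Without Sham replicate 2 these ratios were 3.77 and 4.74. On the log2(TPM + 1) scale, which understates steps at such low values, the log2 fold change was 0.60 in sham versus intact (SE 0.27, adjusted p = 0.183) and 0.73 in pMx versus sham (SE 0.27, adjusted p = 0.0628). The latter was 1.00 without Sham replicate 2 (adjusted p = 0.0156), 0.98 without pMx replicate 2 (adjusted p = 0.0212) and 0.89 with quantile normalization (adjusted p = 0.0248). Only these 2 of the 9 fits that left out 1 library passed, and the highest adjusted p was 0.202. With pseudocounts of 0.1 and 0.01 the adjusted p was 0.105 and 0.311, and in a fit of the sham and pMx libraries alone it was 0.0904.

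Ocstamp and Calcr were close to 0 TPM. Ocstamp (identifier 311639), a second membrane protein of fusion, measured 0.03, 0.02 and 0 TPM in intact synovium, 0.05, 0.32 and 0.03 TPM after sham surgery and 0.30, 0.10 and 0.22 TPM in regenerating tissue. It did not pass in any comparison, with adjusted p values of 0.507 in pMx versus sham, 0.387 in sham versus intact and 0.0760 in pMx versus intact. The log2 fold change of pMx versus intact was 0.24 (SE 0.10), and without Sham replicate 2 its adjusted p was 0.0199. It was also below the threshold with pseudocounts of 0.1 (0.0367) and 0.01 (0.0208), quantile normalization (0.0276) and a fit of those 6 libraries alone (0.0338). Only 1 of the 9 fits that left out 1 library passed in pMx versus intact, and the highest adjusted p was 0.218. RefSeq places Ocstamp over part of Elmo2, and the strand setting of the counting is not given in the sources used here, so reads of the 2 genes may not have been separated. Calcr (identifier 116506), the calcitonin receptor of mature osteoclasts, measured 0, 0.04 and 0.03 TPM in intact synovium, 0.13, 0.06 and 0.03 TPM after sham surgery and 0.03, 0.07 and 0.07 TPM in regenerating tissue. Its groups overlapped, and the adjusted p was 0.783, 0.427 and 0.483 in pMx versus sham, sham versus intact and pMx versus intact.

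**Figure D3:**
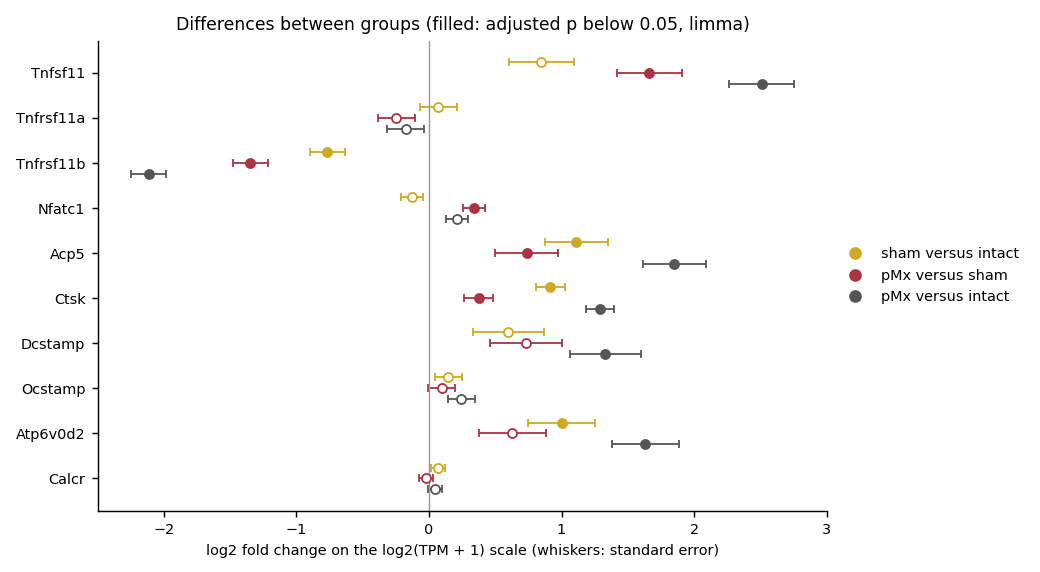
Log2 fold change on the log2(TPM + 1) scale (horizontal axis, whiskers the standard error) of each gene in the 3 comparisons; filled points passed the test at an adjusted p below 0.05. Tnfrsf11b is below 0 in all 3 comparisons, from -0.77 to -2.11, and Tnfsf11 reaches 2.51 in pMx versus intact.

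Of the 7 osteoclast genes, 5 (Ctsk, Acp5, Atp6v0d2, Dcstamp and Ocstamp) were highest in Sham replicate 2 among the sham libraries and lowest in pMx replicate 2 among the pMx libraries. The steps differed in size. Relative to the mean of each gene over the 9 libraries, Sham replicate 2 was at 1.33 for Acp5, 1.5 for Atp6v0d2, 1.58 for Dcstamp and 2.69 for Ocstamp, where the other sham libraries were between 0.252 and 0.865. For Ctsk all 3 sham libraries were at 1.06. Nfatc1 and Calcr did not have this order. They were highest in Sham replicate 1 among the sham libraries, and among the pMx libraries Nfatc1 was lowest in replicate 3 and Calcr in replicate 1. Tnfsf11 was 1.31 TPM in Sham replicate 2, between the other sham libraries, and highest of all in pMx replicate 2. In the intact group Ctsk, Acp5, Dcstamp and Ocstamp were lowest in Intact replicate 3 and Atp6v0d2 in Intact replicate 2. Mmp9, the gelatinase that osteoclasts and neutrophils make, had the order of the 5 genes in the sham and pMx groups. It measured 0.68, 1.28 and 0.32 TPM in intact synovium, 7.46, 32.30 and 3.14 TPM after sham surgery and 44.90, 27.62 and 38.08 TPM in regenerating tissue. This ordering was noticed after the values were seen and was given no test.

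**Figure D4:**
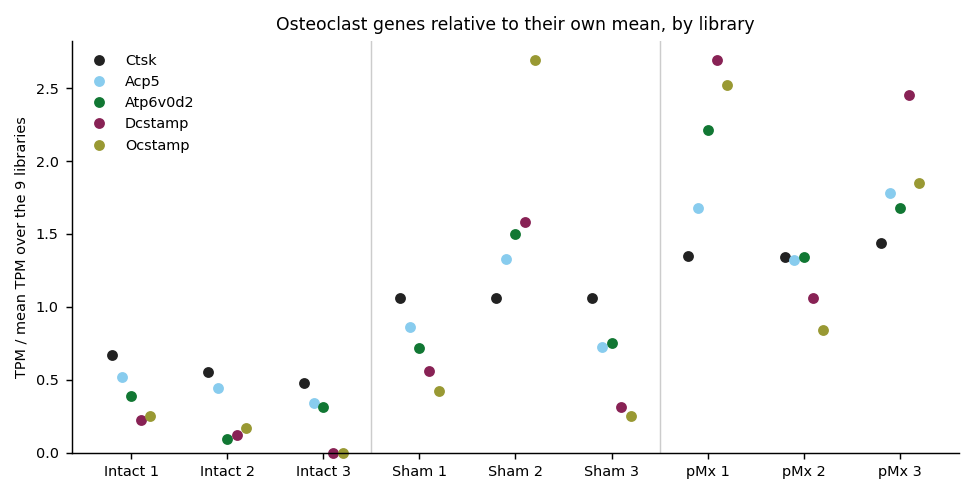
TPM of Ctsk, Acp5, Atp6v0d2, Dcstamp and Ocstamp divided by the mean of the gene over the 9 libraries (vertical axis from 0), by library. Within the sham group Acp5, Atp6v0d2, Dcstamp and Ocstamp stand out in Sham replicate 2, where Ocstamp reaches 2.69, while Ctsk is at 1.06 in each sham library.

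The signals that act on osteoclast precursors beside RANKL were described from lists of other genes of the pathway. Where 2 values follow a gene of these lists in parentheses, they are its log2 fold change and adjusted p. The counts of these lists and of the marker lists below stand beside the shares of all genes that passed. These shares were 36.6% in pMx versus sham, 12.7% in sham versus intact and 50.6% in pMx versus intact. Of 12 genes for the CSF1 receptor, its ligands and the co-receptors that signal through ITAM adaptors, 7 were higher in sham versus intact, among them the adaptors Tyrobp (log2 fold change 0.98, adjusted p = 0.00524) and Fcer1g (0.91, 0.00484), the receptor Trem2 (0.86, 0.0118) and the kinase Btk (0.77, 0.0292). Between pMx and sham 3 of the 12 passed, and all 3 were lower. They were the CSF1 receptor ligands Il34 (log2 fold change -0.64, adjusted p = 0.000902) and Csf1 (-0.47, 0.0114) and the kinase Tec (-0.57, 0.00295). In pMx versus intact 9 were higher and 3 lower. The list median was -0.022 in pMx versus sham, 0.62 in sham versus intact and 0.68 in pMx versus intact. The co-receptor Oscar was at 0.12 to 0.13 TPM in intact, 0.48 to 1.10 TPM in sham and 0.55 to 1.54 TPM in pMx libraries.

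RANK signals through TRAF adaptors to NF-kB and AP-1. Of 16 adaptors, kinases and transcription factors of the NF-kB and AP-1 families, 3 were higher and 1 lower in pMx versus sham. Of all genes, 17.7% passed higher and 18.9% lower there. The AP-1 genes Fosl1 (log2 fold change 1.62, adjusted p = 0.000159) and Fosl2 (0.44, 0.00837) and the TRAF6 partner Tab2 (0.35, 0.0239) rose, and Jun fell by 0.57 on the log2 scale (adjusted p = 0.0432). Fosl1 was at 0.32 to 0.46 TPM in intact, 0.40 to 1.14 TPM in sham and 4.19 to 5.21 TPM in pMx libraries. For sham versus intact, 0 of the 16 passed limma's test, with 2 at an unadjusted p below 0.05, and in pMx versus intact 4 were higher and 2 lower. The list medians were 0.046, -0.10 and -0.089 in pMx versus sham, sham versus intact and pMx versus intact. Traf6, the adaptor that RANK recruits, was at 4.28 to 6.58 TPM over all 9 libraries.

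Of 9 transcription factors and repressors of the lineage, 1 was higher and 2 were lower in pMx versus sham, where 36.6% of all genes passed in either direction. Prdm1, which represses inhibitors of osteoclast genes, had a log2 fold change of 0.40 (adjusted p = 0.0466). Id2, an inhibitor of basic helix-loop-helix factors, fell by 1.25 (adjusted p = 2.12e-05), and Mitf, which acts with PU.1 on Acp5 and Ctsk, fell by 0.73 (adjusted p = 0.00132) on the log2 scale. Mitf was at 22.38 to 24.21 TPM in sham and 13.28 to 14.36 TPM in pMx libraries, and it did not pass in sham versus intact (-0.17, 0.365). The part of Mitf in the levels of Acp5 and Ctsk was not tested. In sham versus intact 3 were higher, among them Irf8 (log2 fold change 0.77, adjusted p = 0.0188) and Spi1, which encodes PU.1 (0.57, 0.0180). Irf8 is known as a restraint on osteoclast formation. Between pMx and intact 4 were higher and 2 lower, and the list medians were -0.076, 0.043 and 0.037 in the same order of comparisons as above.

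Of 22 further genes of attachment, acid secretion and matrix resorption, 7 were higher and 4 lower in pMx versus sham. Among those that passed, the largest changes were in Mmp14, a membrane collagenase of fibroblasts as well as osteoclasts (log2 fold change 1.46, adjusted p = 0.000613), Adam8 (1.08, 0.00112), Itgb3, the integrin subunit of the osteoclast sealing zone (0.63, 0.00826), and Src, the kinase of that zone (0.58, 0.00313). Mmp9 had a log2 fold change of 1.82 (SE 0.65) and did not pass (adjusted p = 0.0567). Between sham and intact 8 were higher, led by Mmp9 (2.62, 0.0349), Mmp14 (1.45, 0.00516), Adam8 (0.73, 0.0244) and the osteoclast proton pump subunit Tcirg1 (0.60, 0.0119). Between pMx and intact 11 were higher and 6 lower. Car2, the carbonic anhydrase that supplies protons for acid secretion, was among those that fell, by 1.19 on the log2 scale (adjusted p = 0.0104), and was at 6.37 to 13.31 TPM in intact and 2.27 to 5.01 TPM in pMx libraries. The list medians were 0.068, 0.12 and 0.31.

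A further list of 20 genes held inducers of RANKL, partners of the ligand or its decoy, and other signals described around the axis. Not every gene of this list is an inducer of RANKL. Of the 20 genes, 19 could be tested, and 7 were higher and 3 lower in pMx versus sham. Ptgs2, the inducible enzyme of prostaglandin synthesis, was at 0.34 to 0.92 TPM in intact, 0.54 to 1.18 TPM in sham and 6.30 to 18.52 TPM in pMx libraries (log2 fold change pMx versus sham 2.77, SE 0.35, adjusted p = 0.000457). The Wnt receptor Ror2 (1.57, 9.71e-05), its ligand Wnt5a (1.37, 0.000148), the vitamin D receptor Vdr (1.28, 0.000621) and the cytokine Il11 (1.11, 0.000315) rose as well. Tnfsf10, which encodes TRAIL, the other TNF family ligand that osteoprotegerin binds, fell by 2.57 on the log2 scale (adjusted p = 2.64e-05). Its libraries were at 71.15, 67.57 and 45.18 TPM in intact, 28.85, 29.57 and 30.99 TPM in sham and 3.73, 4.53 and 4.39 TPM in pMx, so TRAIL had the order of osteoprotegerin and not that of RANKL. The cytokine receptors Il11ra1 and Il6st fell by 1.12 and 0.65 (adjusted p = 0.000168 and 0.00530). Between sham and intact 3 were higher and 2 lower, with Ror2 (0.95, 0.00633), Il11 (0.63, 0.0196) and Pthlh (0.47, 0.0330) up and Tnfsf10 (-0.99, 0.00896) and Il6st (-0.55, 0.0327) down. For pMx versus intact, 8 were higher and 4 lower. The list medians were 0.38, 0.14 and 0.55. The cytokines Tnf and Il1b did not pass in pMx versus sham (adjusted p = 0.454 and 0.310). Il6, Osm and Lif did not pass either (adjusted p = 0.166, 0.134 and 0.727). The pMx ranges of Il6 and Osm lay above their sham ranges, while those of Tnf, Il1b and Lif overlapped. Tnf was at 0.16 to 0.78 TPM and Il1b at 2.79 to 5.57 TPM over the 9 libraries, and Il17a, which was not tested, was listed at 0 in 7 of 9 libraries and at no more than 0.12 TPM.

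**Figure D5:**
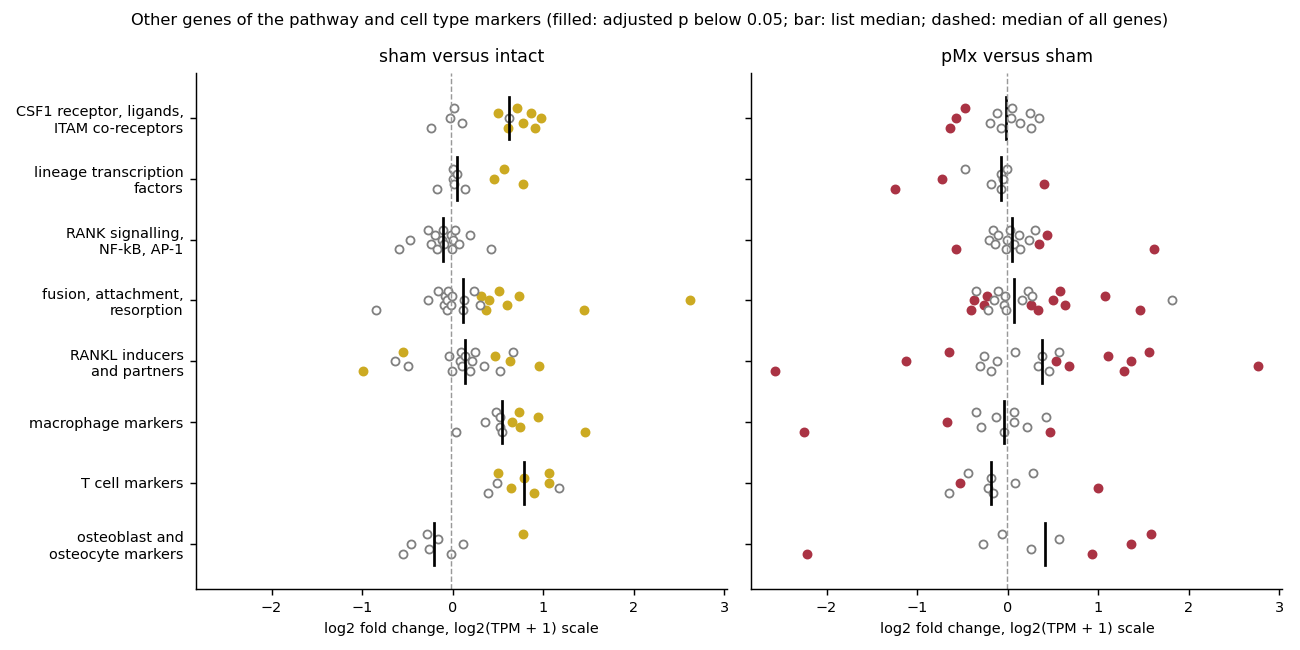
Log2 fold change on the log2(TPM + 1) scale (horizontal axes) of the genes of 8 lists in sham versus intact (left) and pMx versus sham (right); each point is a gene, filled where it passed the test, bars are list medians and the dashed line is the median of all genes. The list of the CSF1 receptor and its co-receptors has a median of 0.62 in sham versus intact and -0.022 in pMx versus sham.

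Markers of the cells that could hold these transcripts moved with some of the groups. The 11 macrophage markers in the table summed to 2750 to 4641 TPM in intact, 7113 to 7945 TPM in sham and 8038 to 8356 TPM in pMx libraries. Without Lyz2, which made up most of the sum, the ranges were 1091 to 1707, 1804 to 1918 and 1292 to 1705 TPM. For sham versus intact, 5 of the 11 were higher, led by Lyz2 (log2 fold change 1.46, adjusted p = 0.00538) and Cd68 (0.94, 0.00975). In pMx versus sham Cd68 rose (0.47, 0.0428), and Cd163 (-2.25, 0.000259) and C1qb (-0.67, 0.0321) fell. In pMx versus intact 7 were higher and 1 lower. The list medians were -0.039, 0.55 and 0.61 in pMx versus sham, sham versus intact and pMx versus intact.

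Ratios within a library set the osteoclast genes against the macrophage lineage, with no test. The ratio of Acp5 to Csf1r, the CSF1 receptor of the whole lineage, was 0.273 to 0.305 in intact, 0.333 to 0.532 in sham and 0.531 to 0.931 in pMx libraries. That of Ctsk to Csf1r was 2.39 to 2.97, 2.80 to 3.41 and 3.70 to 5.18. For Ctsk the pMx range lay above the sham range, and for Acp5 the lowest pMx ratio was level with the highest sham ratio. Against Cd68, the lysosomal marker of macrophages, the 3 groups overlapped for Ctsk, while for Acp5 the pMx range began just above the end of the intact range. The ratio of Ctsk to Cd68 was 3.47 to 4.09 in intact, 3.35 to 4.03 in sham and 3.11 to 3.98 in pMx libraries, and that of Acp5 to Cd68 was 0.391 to 0.481, 0.401 to 0.610 and 0.483 to 0.716. The part of macrophage number in the levels of Acp5 and Ctsk was not tested further.

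Bone cells and T cells, the sources of RANKL known from the skeleton and from inflamed joints, were followed by their markers. Of 8 osteoblast and osteocyte markers that could be tested, 3 were higher and 1 lower in pMx versus sham. Sp7 (log2 fold change 1.58, adjusted p = 3.83e-05) and Runx2 (1.36, 0.000648), transcription factors of the osteoblast lineage, and Alpl (0.94, 0.000251) rose, and Phex fell by 2.22 (adjusted p = 9.25e-05). Sp7 was at 0.36 to 0.60 TPM in intact, 0.26 to 0.64 TPM in sham and 3.32 to 3.45 TPM in pMx libraries. The defining matrix genes of bone stayed low: Bglap (osteocalcin) was at no more than 1.38 TPM, Ibsp at no more than 3.36 TPM and the osteocyte gene Sost at no more than 0.27 TPM in any library. Runx2 alone passed in sham versus intact (0.78, 0.0298), and in pMx versus intact 3 were higher and 2 lower. The summed level was 17.0 to 22.3 TPM in intact, 16.6 to 18.6 TPM in sham and 23.9 to 25.9 TPM in pMx libraries. The list medians were 0.41, -0.21 and 0.048.

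Of 9 T cell markers, 6 were higher in sham versus intact, led by Cd3g (log2 fold change 1.07, adjusted p = 0.00499) and Cd3e (1.07, 0.0397). For pMx versus sham, Cd8a rose (1.00, 0.00379) and Cd3g fell by 0.53 (adjusted p = 0.0178), and in pMx versus intact 6 were higher. The defining gene Cd3e was at 0.25 to 1.27 TPM in intact, 1.38 to 3.58 TPM in sham and 1.61 to 1.95 TPM in pMx libraries. Cd8a was at 0.76 to 1.38, 2.31 to 3.87 and 5.52 to 8 TPM. The part of T cells in the level of Tnfsf11 was not tested. The 9 markers summed to 136 to 220, 238 to 256 and 167 to 211 TPM, mostly from Cd4, which rat macrophages also carry. The list medians were -0.18, 0.79 and 0.53.

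The other markers described the tissue sampled. Of 7 synovial fibroblast markers, 1 was higher and 3 were lower in pMx versus sham. Thy1 rose (log2 fold change 1.69, adjusted p = 0.000231), and Clic5 (-4.09, 3.06e-05), Dpt (-1.375, 0.000179) and Cd55 (-1.016, 0.00131) fell. Prg4 did not pass (0.12, 0.68). In sham versus intact 2 were higher and 2 lower, and in pMx versus intact 2 were higher and 4 lower. Of 8 cartilage markers, 4 were higher in pMx versus sham, led by Acan (3.43, 0.00136) and Sox9 (1.68, 7.92e-05). Between sham and intact 2 were higher, and in pMx versus intact 4 were higher and 1 lower. Col10a1, which marks the hypertrophic cartilage that osteoclasts remove, was at no more than 0.53 TPM and listed at 0 in 5 libraries. The tissue differed between the groups of pMx versus sham, so its part in the levels of Tnfsf11 and Tnfrsf11b cannot be told apart from that of the surgery. Of the 7 skeletal muscle markers 0 passed limma's test in any comparison, with 0 at an unadjusted p below 0.05.

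The genes with the most similar pattern over the 9 libraries were sought among 13200 genes with a mean of at least 1 TPM, by the root mean square difference of log2(TPM + 1) after centring each gene on its own mean. For Tnfsf11 they were Igsf10 (0.197), Timp1 (0.206) and Ccne1 (0.228). Timp1, an inhibitor of matrix metalloproteinases, had mean levels of 192, 351 and 973 TPM in intact, sham and pMx. For Tnfrsf11b they were Gnal (0.117), Larp6 (0.125) and Rtn1 (0.128), which had pMx versus intact log2 fold changes of -2.08, -1.92 and -2.19. For Acp5 they were Gpnmb (0.145), a membrane glycoprotein of macrophages and osteoclasts, Il1rn (0.176) and Slamf9 (0.193), and Gpnmb had mean levels of 195, 415 and 607 TPM. The 3 libraries of a group share their tissue and surgery, so these are 9 points in 3 groups and the values are a description.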

How the data were processed

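RNA of synovium and regenerating tissue from rat knees was captured with oligo-dT beads and made into dUTP-marked libraries, which BGI sequenced on DNBSEQ. The authors deposited TPM values for 9 libraries, computed at BGI with Dr. Tom. The submitters' processing notes name HISAT2 2.0.4 and the assembly mRatBN 7.2, without a role. The counting tool and the annotation are not given in the sources used here. All TPM columns were mapped to samples by title.

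From the deposited TPM, log2(TPM + 1) was taken for genes above 0 TPM in at least 3 libraries (16512 of 17602). The 9 libraries entered 1 fit with a mean per group (limma 3.58.1, R 4.3.3; eBayes with trend), and p-values were adjusted by Benjamini-Hochberg over all genes tested. DEGs were set by the cutoffs of the study, an absolute log2 fold change above 1 together with an adjusted p below 0.05. The measures differ: here the fold change is on log2(TPM + 1) and the p-value from limma, while the study used Dr. Tom and Q values. The DEG counts here are therefore not those of the study. The p-values set the difference between groups against the spread of libraries within groups, which was estimated over all 9 libraries. Calls in pMx versus sham therefore depend on the intact libraries as well. The calculation was tested on simulated data. Tables and figures were made in Python 3.11.15 with pandas 2.3.3 and Matplotlib 3.10.9.

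The 10 genes and the lists of other genes were chosen with earlier results of these data known. Genes were named from the up to 4 of each list per comparison with the largest absolute log2 fold change among those that passed, and defining markers near 0 TPM. Not every gene within this rule is reported here. Other list genes (Traf6, Vdr, Il11ra1, Pthlh, Tnf, Il1b and Csf1r among them) were named after their values were seen. Promoter windows came from RefSeq for GRCr8, and no coordinates of mRatBN were used. RefSeq gave a gene identifier match for 17419 genes (99%). Alternatives were quantile normalization and median-of-ratios rescaling, smaller pseudocounts (0.1 and 0.01), a filter on a mean of 1 TPM or none, eBayes without the trend, fits of the 6 libraries compared, a replicate block, stricter thresholds and leaving out each library.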

Additional observations from a re-analysis of the deposited data

How the results depend on the processing

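Of the alternatives tried for the single genes, 293 of 321 results other than leave-outs and 241 of 270 leave-outs kept their direction and their side of the threshold. Many of these could not change direction. The filters, eBayes without the trend, the replicate block, the fits of the libraries compared and the stricter thresholds leave the log2 fold change as it was. So does leaving out a library of the group that is not compared. In pMx versus sham, the count of 5 genes past the test became 2 at an adjusted p below 0.01 and 2 with an absolute log2 fold change above 1 as well, and it ranged from 3 to 6 on leaving out each library, with 3 without Sham replicate 1, Sham replicate 3, pMx replicate 1 or pMx replicate 3. In sham versus intact, the count of 4 became 2 in a fit of the 6 libraries, 1 at an adjusted p below 0.01 and 2 with an absolute log2 fold change above 1, and ranged from 2 to 4 on leaving out each library, with 2 without Intact replicate 2, Sham replicate 1 or Sham replicate 2. In pMx versus intact the count of 6 ranged from 6 to 7 on leaving out each library. It was 8 with quantile normalization or a fit of the 6 libraries. With a minimum mean of 1 TPM it was 5, as that filter left 7 genes to test and removed Dcstamp, which had passed. Quantile normalization gave 7 in pMx versus sham. The log2 fold change changed sign for Calcr in pMx versus sham (-0.022) with quantile normalization (0.031) and without Sham replicate 1 (leave-outs from -0.051 to 0.016), and for Tnfrsf11a in sham versus intact (0.071) without Intact replicate 3 (leave-outs from -0.089 to 0.18), none of them past the threshold. The mean ratio of Tnfsf11 to Tnfrsf11b ranged from 0.00465 to 0.00886, 0.0499 to 0.0934 and 0.823 to 1.02 in intact, sham and pMx on leaving out each library. Apart from the removal of Dcstamp by the filter, the causes of these changes were not tested. Over all genes, 6046 calls in pMx versus sham became 3763 at an adjusted p below 0.01 and 1355 DEGs. In sham versus intact 2097 became 687 in the fit of 6 libraries, 420 at an adjusted p below 0.01, 323 DEGs and 628 to 2969 on leaving out each library, with 1091, 734 and 628 without Intact replicate 2, Sham replicate 1 and Sham replicate 2. In pMx versus intact 8350 became 2360 DEGs.

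The replicate numbers gave no clear pairing of the samples, but with 3 libraries in each group this check cannot exclude one. Libraries with the same number deviated from the means of their groups with correlations of 0.035, 0.37 and 0.48 between pMx and sham, 0.0016, -0.40 and -0.49 between sham and intact and -0.38, -0.44 and -0.66 between pMx and intact, and 0 of 9 libraries correlated best with their own number in both other groups. With the replicate number as a block, 4, 3 and 6 of the 10 genes passed in pMx versus sham, sham versus intact and pMx versus intact, and 5901, 1585 and 8208 of all genes. Acp5 in pMx versus sham (adjusted p = 0.0602) and Atp6v0d2 in sham versus intact (adjusted p = 0.0761) no longer passed, and the block changed no other call among the 10 genes. Without read numbers, genes near 0 TPM such as Ocstamp and Calcr, and Tnfsf11 in the intact group, cannot be given a detection limit.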
